A study of Homo sapiens with 12 samples.

Results

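The mitotic genes PLK1 and HMMR and the cyclin genes CCNA2 and CCNE2 were followed through 9 of the 60675 gene rows of the count tables, and all 9 were among the 14911 rows that passed the filter on low counts. A row is the line of the table that holds the reads assigned to 1 annotated gene. Of the 9 rows, 4 belong to features on the strand opposite these genes: ENSG00000261266 opposite PLK1, HMMR-AS1 opposite HMMR, EXOSC9 opposite CCNA2 and INTS8 opposite CCNE2. The other 5 are the own rows of PLK1, HMMR, CCNA2, CCNE2 and the cyclin gene CCND1. The rows were chosen by position and name, with earlier results of these data known.

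The cells were HSC-3, an established human oral squamous carcinoma line, and each of 3 groups had 4 libraries of total RNA. One group was untreated. Another received cyclopiazonic acid (CPA) at 25 µM for 3 hours, and the third received the same CPA treatment together with synta-66. CPA blocks the pump that loads calcium into the endoplasmic reticulum, and synta-66 inhibits the ORAI channels through which calcium then enters. The sources used here give no dose for synta-66, and cells given only synta-66 were not analysed here. HSC-3 is a single line, and whether the libraries of a group were separate cultures is not given, so the p-values reflect a spread between libraries that may be technical.

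Cells divide by passing through phases that cyclins and their partner kinases open in turn. D-type cyclins act in G1, E-type cyclins at the entry to S phase, and cyclin A through S phase and G2. PLK1 is a kinase that drives entry into and passage through mitosis, and HMMR encodes a microtubule-binding protein of the mitotic spindle. Many genes of G2 and mitosis are held down early in the cycle through short promoter elements and released later. EXOSC9 encodes a subunit of the RNA exosome, which degrades RNA, and INTS8 a subunit of the Integrator complex, which cleaves nascent transcripts of small nuclear RNA and other genes. In bulk RNA, fewer cells in a phase of the cycle and less RNA per cell cannot be told apart.

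Each opposite row shares only some of its exon bases with its partner, in coordinates of GENCODE 44 on GRCh38. ENSG00000261266, an unnamed long noncoding RNA gene of 641 exon bases on the minus strand (chr16:23687049-23687689), had 553 of them (86.3%) opposite exons of PLK1 (chr16:23677656-23690367, plus strand), and 156 of these lay in PLK1 coding sequence. HMMR-AS1 (chr5:163483065-163494058, minus strand) had 113 of 957 exon bases (11.8%) opposite HMMR (chr5:163460203-163491941, plus strand), all in HMMR coding sequence. EXOSC9 (chr4:121801318-121817021, plus strand) met CCNA2 (chr4:121816444-121823883, minus strand) end to end, with 254 of 4710 exon bases (5.4%) shared and none of them in CCNA2 coding sequence. INTS8 (chr8:94813311-94881746, plus strand) and CCNE2 (chr8:94879770-94896678, minus strand) also met end to end, with 1629 of 7866 exon bases (20.7%) of INTS8 shared. Of these, 111 lay in CCNE2 coding sequence. A further feature, ENSG00000272509, also lies opposite exons of CCNE2, and its values are not given here. The counts do not say where in a row its reads lie, so the transcript of the named feature and that of the gene across from it cannot be told apart. Which strand the reads came from was not tested, and the labels say only that the library was counted as stranded. The sources used here give neither the kit nor the strand setting. If that setting was reversed, reads of PLK1, HMMR, CCNA2 and CCNE2 would be in the opposite rows only where they fall on exons of those features. The shared stretches hold 11.6%, 2.9%, 9.2% and 37.0% of the exon bases of these 4 genes, so most exon bases lie outside them. Every value is therefore given for a row, and neither row is taken as the gene's transcript. The map of the 4 pairs shows how little of EXOSC9 and of HMMR-AS1 lies opposite the cell cycle gene.

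**Figure D1:**
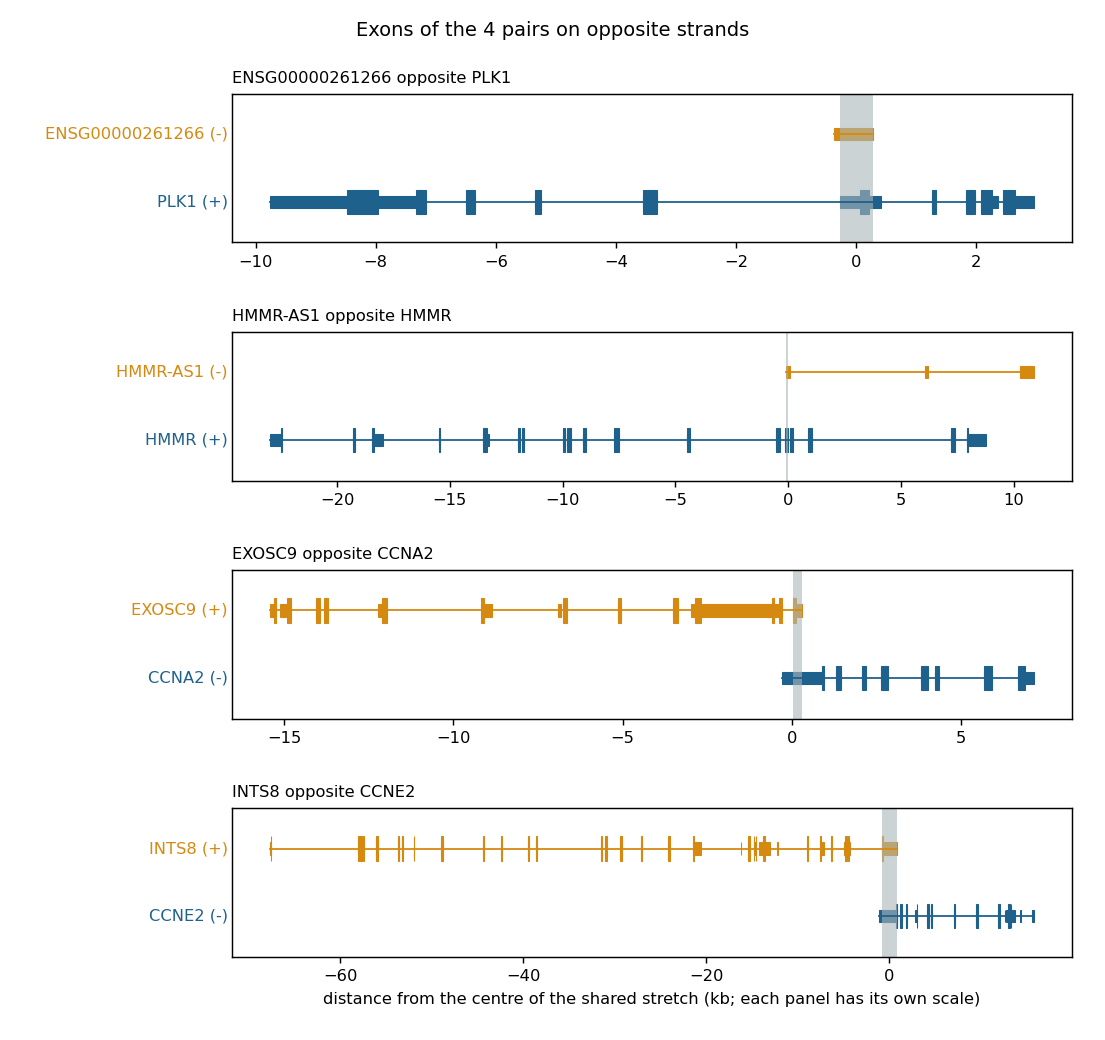
Exons of the 4 opposite features (orange) and of the 4 cell cycle genes (blue), plotted against distance in kb from the centre of the shared stretch, with coding parts drawn taller and the shared stretch shaded. Every panel has its own scale. The shaded stretch takes in 553 of 641 exon bases of ENSG00000261266 but 254 of 4710 of EXOSC9.

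The shared stretches of the pair of mitotic genes are shown because they hold the coding sequence of PLK1 and, but for 5 bases in another exon, of HMMR that the opposite rows cover. Exon 6 of PLK1 lay wholly opposite ENSG00000261266. It is printed on the plus strand with 20 flanking bases on each side (chr16:23687449-23687644), and the capitals mark the 156 bases that lie opposite the noncoding feature.

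PLK1 exon 6: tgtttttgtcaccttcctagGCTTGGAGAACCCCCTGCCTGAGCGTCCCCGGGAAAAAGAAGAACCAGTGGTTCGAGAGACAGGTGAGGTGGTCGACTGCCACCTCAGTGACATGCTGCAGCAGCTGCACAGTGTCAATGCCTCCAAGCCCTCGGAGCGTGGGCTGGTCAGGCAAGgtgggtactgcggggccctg

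Exon 14 of HMMR is printed in the same way (chr5:163483000-163483192), and the capitals mark the 108 of its 153 bases that lie opposite HMMR-AS1.

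HMMR exon 14: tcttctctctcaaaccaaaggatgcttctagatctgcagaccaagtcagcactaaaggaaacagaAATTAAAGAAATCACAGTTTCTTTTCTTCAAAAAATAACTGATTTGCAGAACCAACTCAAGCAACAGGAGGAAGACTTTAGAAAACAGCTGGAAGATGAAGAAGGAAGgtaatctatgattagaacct

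The promoters of PLK1, HMMR and CCNA2 are shown because these genes are known as a group for the short elements that time them to the later part of the cycle. Of the 9 rows, 5 had an entry in the RefSeq promoter table (GRCh38.p14), and the 150 bases before the start of these 3 are given 5′ to 3′ on the gene's strand. Capitals mark TTTGAA or CTTGAA, the core letters of the cell cycle genes homology region and of its variant, and CCAAT, each searched on both strands (in reverse TTCAAA for the first, TTCAAG for the second and ATTGG for the third).

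PLK1 promoter (chr16:23678739-23678888, plus strand): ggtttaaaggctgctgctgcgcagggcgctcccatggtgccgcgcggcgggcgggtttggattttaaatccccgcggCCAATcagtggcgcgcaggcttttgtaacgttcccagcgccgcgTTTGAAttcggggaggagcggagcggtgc

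HMMR promoter (chr5:163460482-163460631, plus strand): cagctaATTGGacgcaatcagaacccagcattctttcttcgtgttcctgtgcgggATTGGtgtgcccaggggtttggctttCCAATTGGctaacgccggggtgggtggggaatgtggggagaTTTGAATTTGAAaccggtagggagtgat

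CCNA2 promoter (chr4:121823884-121824033, minus strand): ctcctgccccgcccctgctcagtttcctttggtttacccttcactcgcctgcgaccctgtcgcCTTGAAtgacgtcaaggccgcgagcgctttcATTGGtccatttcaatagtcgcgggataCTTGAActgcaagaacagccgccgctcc

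PLK1 had 1 TTTGAA, which began 29 bases before the start. HMMR had 2 in a row, which began 28 and 22 bases before it. CCNA2 had CTTGAA 28 and 87 bases before its start. Either motif was found in the same window of 12% of 35116 promoters (7.33% for TTTGAA and 5.31% for CTTGAA), and CCAAT in 23.5%. CCAAT on either strand was found once in PLK1, 4 times in HMMR, where 2 of the matches overlap, and once in CCNA2. A match of letters is a description and does not show that the site is bound.

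Gene reads numbered 2819486 to 5458858 in the 12 libraries, or 3.58% to 9.4% of the uniquely aligned reads, nearly all others of which fell in no annotated feature. Mitochondrial ribosomal RNA took 1.14% to 39.63% of them in untreated libraries, 0.17% to 9.43% with CPA and 3.12% to 53.53% with synta-66, and leaving these RNAs out changed no call of the 9 rows. Untreated replicate 3 and CPA with synta-66 replicates 1 and 4 stood apart, with the highest shares and the most non-unique alignments. Results that change without these 3 libraries are given below with the value. By own rows, 11 of 12 squamous epithelial markers had a mean of at least 1 CPM (counts per 1000000 reads after scaling), but KRT8 gave most of their summed 7068 to 8736 CPM. The row of KRT8 also lies opposite KRT18, by 525 exon bases. Of 9 fibroblast markers none reached 1 CPM by own row and 4 were at 0 throughout. Endothelial markers summed to at most 1.29 CPM by own rows, and of 6 immune markers only CD68 reached 1 CPM. The row opposite the fibroblast marker FAP held 5.9 to 15.8 CPM. ENSG00000260798, opposite the epithelial marker CDH1, averaged 138 CPM untreated, 182 with CPA and 157 with CPA and synta-66. The epithelial markers EPCAM and CDH1 averaged only 1.63 and 1.41 CPM by own row, so low own rows do not show that a cell type is absent.

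For each pair the opposite row held more reads than the own row in 12 of 12 libraries. Over all libraries, ENSG00000261266 had 3195 reads and PLK1 100, a ratio of 31.9. HMMR-AS1 had 2822 reads and HMMR 472, EXOSC9 had 8394 and CCNA2 3330, and INTS8 had 36284 and CCNE2 3188. Per kilobase of exon these totals were 4984 against 21 reads for the PLK1 pair, 2949 against 120 for the HMMR pair, 1782 against 1212 for the CCNA2 pair and 4613 against 725 for the CCNE2 pair. By this measure the opposite row was the larger in 12 of 12 libraries for 3 pairs and in 11 of 12 for EXOSC9 and CCNA2.

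On this scale of CPM per kilobase of exon, the order in untreated cells ran from ENSG00000261266 (124 ± 10.1, SD, n = 4) through HMMR-AS1 (72.0 ± 1.86), INTS8 (70.8 ± 8.92), EXOSC9 (48.5 ± 10.5), CCNA2 (25.7 ± 5.45), CCND1 (22 ± 10.1), CCNE2 (16.0 ± 1.23) and HMMR (3.28 ± 1.06) to PLK1 (0.551 ± 0.198). The libraries of HMMR-AS1 and INTS8 overlapped, as did those of CCNA2 and CCND1 and of CCND1 and CCNE2, and no order can be read within these. With CPA, INTS8 stood first at 138 ± 8.60 and ENSG00000261266 at 79.3 ± 7.77 CPM per kilobase.

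CPA lowered 3 of the 4 opposite rows and raised the fourth. ENSG00000261266, HMMR-AS1 and EXOSC9 fell by 34.5% to 37.0%, while INTS8 rose 1.95-fold. Of the 5 own rows, HMMR and CCND1 fell and PLK1, CCNA2 and CCNE2 did not pass the test. Calls were made by the quasi-likelihood test of edgeR, with p adjusted by Benjamini-Hochberg over all 14911 rows, and needed an adjusted p below 0.05 together with a 1.5-fold change. Thus 5 of the 9 rows were called lower, beside 1.05% of all rows, and 1 was called higher, beside 1.8%. With synta-66 added to CPA, HMMR-AS1 and HMMR were higher than with CPA alone and INTS8 was lower. That is 2 rows called higher, beside 1.94% of all rows, and 1 called lower, beside 2.82%. Between CPA with synta-66 and untreated cells, CCND1 alone was called, lower, beside 1.24% of all rows called lower and 1.66% called higher. Since the rows were taken up with earlier results known, these counts describe the rows and do not test them as a group. Each pair of these comparisons shares the 4 libraries of 1 group.

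**Figure D2:**
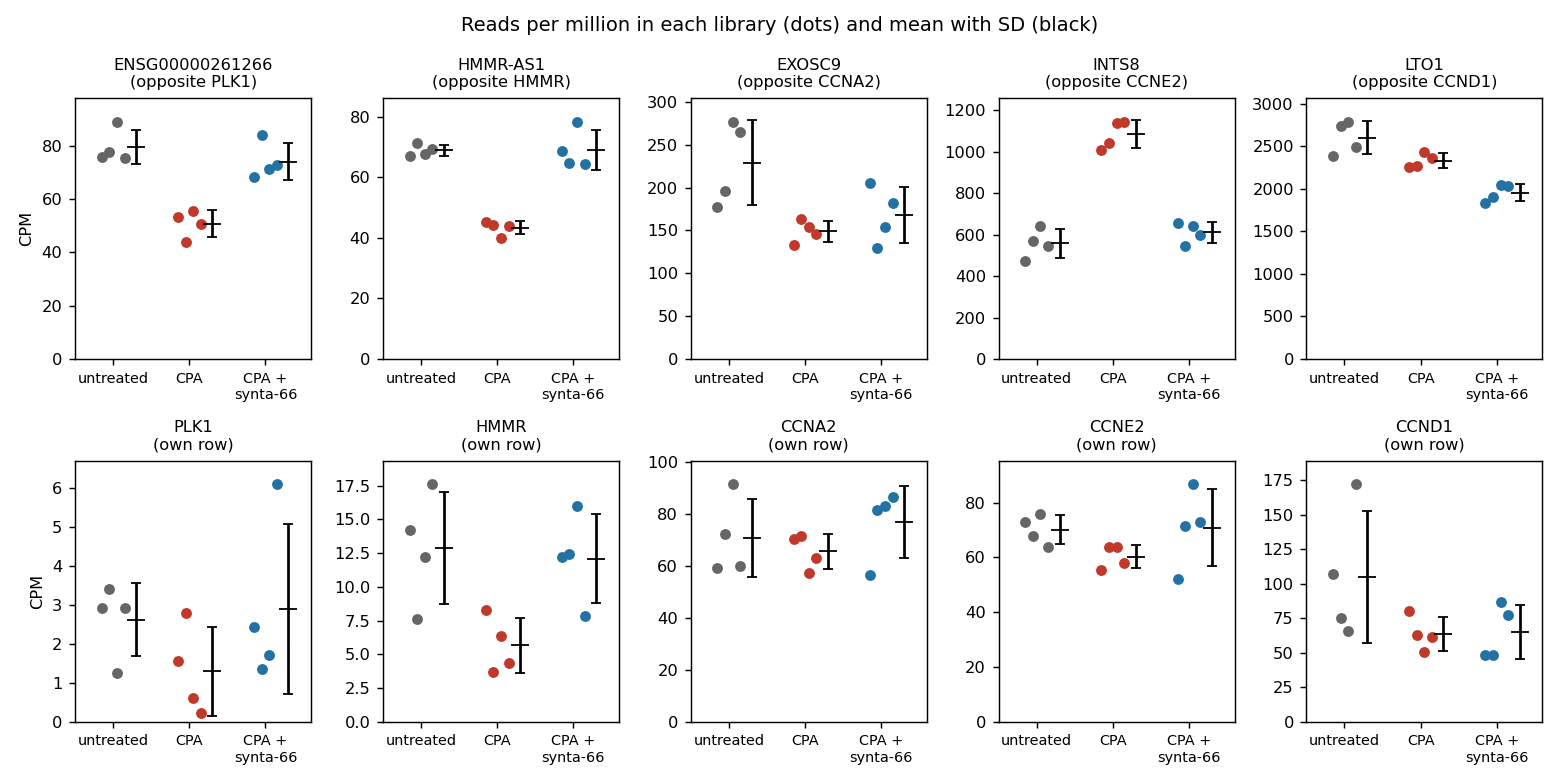
CPM in each of the 4 libraries of a group (dots) and their mean with SD (black) for the 4 opposite rows and LTO1 (upper panels) and the 5 own rows (lower panels), each axis starting at 0 with its own scale. ENSG00000261266, HMMR-AS1 and EXOSC9 were lower in every CPA library than in any untreated library, and INTS8 was higher. PLK1 stayed at or below 6.09 CPM in every library.

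The row opposite PLK1 held 76.0, 77.6, 89.1 and 75.3 CPM in the untreated libraries 1 to 4. With CPA it held 53.2, 43.9, 55.5 and 50.7 CPM, and with CPA and synta-66 68.2, 84.0, 71.5 and 72.7 CPM. Every CPA library lay below every library of both other groups, and these other groups overlapped. ENSG00000261266 thus fell from 79.5 ± 6.46 to 50.8 ± 4.98 CPM (SD, n = 4), with a log2 fold change of -0.64 ± 0.12 (SE, adjusted p = 0.000252). With synta-66 it stood at 74.1 ± 6.89 CPM, 0.55 ± 0.12 above CPA alone on the log2 scale. That difference had an adjusted p of 0.00185 but a fold of 1.46, just short of the minimum for a call. Against untreated cells the log2 difference was -0.10, with a 95% interval from -0.34 to 0.14. The fall lay close to the minimum fold of 1.5 (0.585 on the log2 scale), and slipped under it without CPA replicate 2 (-0.575) or without the 3 libraries that stood apart (-0.58). Without CPA replicate 3 the difference with synta-66 passed it, at 0.59 with an adjusted p of 0.00336.

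The own row of PLK1 held few reads. The untreated libraries had 14, 17, 4 and 10 reads, the CPA libraries 6, 12, 3 and 1, and those with CPA and synta-66 6, 6, 7 and 14. In CPM these were 2.62 on average without treatment, 1.29 with CPA and 2.90 with synta-66 added, and the groups overlapped in each comparison. The log2 fold change with CPA was -1.04 ± 0.70 (adjusted p = 0.537), and its 95% interval from -2.45 to 0.38 takes in both no change and the fall seen at the opposite row. With so few reads in the row, a change of that size was not detectable there. Another gene, ERN2 (chr16:23690310-23713226, minus strand), overlaps the end of PLK1 by 58 exon bases. Its row held between 14.4 and 21.6 CPM untreated, 11.4 and 13.4 with CPA, and 14.6 and 19.7 with synta-66. The CPA libraries lay below the others there too, but the row was not called (-0.53 ± 0.23, adjusted p = 0.225).

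HMMR-AS1, the row opposite HMMR, was also low in the CPA libraries alone. It held 67.2, 71.2, 67.8 and 69.4 CPM untreated, then 45.2, 44.4, 40.1 and 44 CPM with CPA. With synta-66 added it held 68.6, 64.6, 78.4 and 64.4 CPM. No CPA library reached the range of either other group. The fall with CPA was -0.67 ± 0.12 on the log2 scale (adjusted p = 0.00017), and the rise from CPA to CPA with synta-66 was 0.67 ± 0.12 (adjusted p = 0.000144). Between synta-66 and untreated cells the log2 difference was 0.00 with a 95% interval from -0.24 to 0.25. Both calls held when any 1 library was left out.

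HMMR read by its own row moved as HMMR-AS1 did, at a far lower level. The untreated libraries held 14.2, 7.60, 12.2 and 17.6 CPM, from 38 to 68 reads each. The CPA libraries held 8.26, 3.72, 6.34 and 4.32 CPM, and those with synta-66 12.2, 12.4, 16.0 and 7.83 CPM. The groups overlapped by 1 library on each side: CPA replicate 1, with 8.26 CPM, lay above untreated replicate 2 and CPA with synta-66 replicate 4. HMMR fell from 12.9 ± 4.17 to 5.66 ± 2.06 CPM with CPA (log2 fold change -1.18 ± 0.32, adjusted p = 0.0195) and stood at 12.1 ± 3.33 CPM with synta-66 (1.12 ± 0.32 against CPA, adjusted p = 0.0233). These calls rested on few reads. The first was lost without untreated replicate 1 (adjusted p = 0.065) or 4 (0.0924) or CPA replicate 2 (0.0847) or 4 (0.0814). The second was lost without CPA replicate 2 (adjusted p = 0.0899) or 4 (0.0786) or CPA with synta-66 replicate 3 (0.117).

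EXOSC9, opposite CCNA2, fell with CPA, and its difference between CPA and CPA with synta-66 did not pass the test. It held 177, 196, 277 and 265 CPM untreated and 133, 163, 154 and 146 CPM with CPA, with no overlap. With synta-66 it held 206, 130, 154 and 182 CPM, a range that takes in all of the CPA range and overlaps the untreated one. The log2 fold change with CPA was -0.61 ± 0.12 (adjusted p = 0.000603). From CPA to CPA with synta-66 it was 0.16, with a 95% interval from -0.08 to 0.41 (adjusted p = 0.525). CPA with synta-66 remained below untreated cells by -0.45 ± 0.12 (adjusted p = 0.0217), under the minimum fold. The 2 highest libraries with synta-66, replicates 1 and 4, and the highest untreated one, replicate 3, are those that stood apart. Without them the fall with CPA was -0.50, under the minimum fold, the second difference was -0.11 (adjusted p = 0.763) and the third was -0.61 and called (adjusted p = 0.00347). The fall with CPA was also under the minimum fold without untreated replicate 3 (-0.51) or 4 (-0.53) or CPA replicate 1 (-0.55).

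Whether EXOSC9 responded to synta-66 differently from HMMR-AS1 was tested on their ratio within each library. The log2 ratio of HMMR-AS1 to EXOSC9 was higher by 0.51 with synta-66 than with CPA alone (exact two-sided permutation test, p = 0.0571, adjusted p = 0.60 over the 12 tests of the added ratios). For ENSG00000261266 to EXOSC9 the difference was 0.39 (exact p = 0.171). Neither difference passed the test. Without the 3 libraries that stood apart they were 0.79 and 0.69.

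The own row of CCNA2 gave no call. It held 59.3, 72.2, 91.3 and 59.8 CPM untreated, 70.2, 71.6, 57.1 and 63.0 CPM with CPA, and 56.4, 81.3, 83.0 and 86.6 CPM with synta-66. The groups overlapped throughout. The log2 fold change with CPA was -0.11 (adjusted p = 0.799). Its 95% interval from -0.38 to 0.17 just meets that of EXOSC9, from -0.85 to -0.37. Without untreated replicate 3 the direction of CCNA2 turned, to 0.03. The log2 ratio of EXOSC9 to CCNA2 was 1.69 ± 0.31 untreated and 1.19 ± 0.21 with CPA (SD, n = 4), with no overlap. The exact permutation p of 0.0286 is the smallest that 4 against 4 libraries can give, and was 0.0643 after adjustment over the 18 ratio tests.

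INTS8, opposite CCNE2, moved the other way. The untreated libraries held 471, 568, 642 and 546 CPM, the CPA libraries 1009, 1043, 1137 and 1144 CPM, and those with synta-66 656, 543, 642 and 599 CPM. Every CPA library lay above every other library, and the untreated and synta-66 groups overlapped. INTS8 rose from 557 ± 70.1 to 1083 ± 67.7 CPM (SD, n = 4), a log2 fold change of 0.96 ± 0.08 (adjusted p = 5.05e-12). With synta-66 it was lower than with CPA alone by -0.83 ± 0.08 (adjusted p = 3.02e-10), at 610 ± 50.8 CPM. Its log2 difference from untreated cells was 0.13, with a 95% interval from -0.03 to 0.29 (adjusted p = 0.5). INTS8 kept the same calls in all 23 alternatives examined. It was the only one of the called rows to do so with glmTreat, which tests a change against 1.5-fold itself.

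CCNE2 itself, an E-type cyclin, was not called by its own row. It held 73.1, 67.8, 75.9 and 63.9 CPM untreated, 55.5, 63.9, 63.9 and 57.8 CPM with CPA, and 52.3, 71.4, 86.7 and 73.1 CPM with synta-66. The CPA libraries lay at or below the lowest untreated one to the 3 digits given. The log2 fold change with CPA was -0.22 (adjusted p = 0.446). Its 95% interval from -0.47 to 0.04 lies wholly below that of INTS8, from 0.8 to 1.12. From CPA to CPA with synta-66 it was 0.24 (adjusted p = 0.312). The log2 ratio of INTS8 to CCNE2 was 2.98 ± 0.20 untreated, 4.17 ± 0.11 with CPA and 3.12 ± 0.35 with synta-66. The CPA libraries did not overlap with either other group (exact permutation p = 0.0286 and adjusted p = 0.0643 for both).

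**Figure D3:**
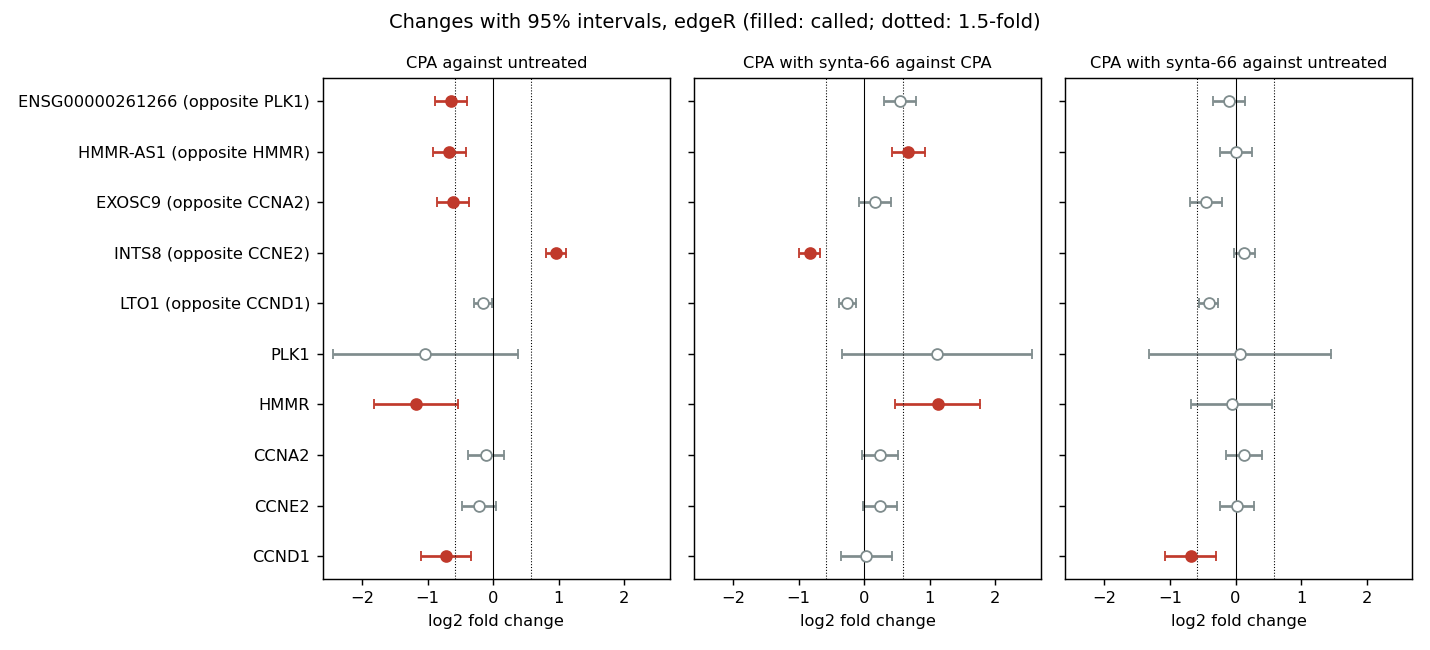
Log2 fold changes with 95% intervals of the 9 rows and of LTO1 in the 3 comparisons, from edgeR; filled red points were called and dotted lines mark 1.5-fold. With CPA, INTS8 lay at 0.96 and the rows opposite PLK1, HMMR and CCNA2 between -0.67 and -0.61. The interval of PLK1 spans -2.45 to 0.38.

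The opposite changes of INTS8 and of the other opposite rows were also measured within libraries, where no scaling between libraries enters. The log2 ratio of INTS8 to ENSG00000261266 was 2.63 to 2.87 untreated, 4.24 to 4.56 with CPA and 2.69 to 3.26 with synta-66. In numbers of reads these are mean ratios of 6.97, 21.3 and 8.22. The ratio of INTS8 to EXOSC9 had log2 means of 1.3, 2.86 and 1.88, and here all 3 groups were apart, with the synta-66 libraries between the others. For both ratios the CPA libraries did not overlap with the untreated or the synta-66 ones (exact permutation p = 0.0286, adjusted p = 0.0643 in each case). With 4 libraries a group and 18 tests, no ratio can fall below this adjusted value unless more of them reach the smallest p. The ratios of ENSG00000261266 to HMMR-AS1 differed by 0.02 with CPA and by -0.12 with synta-66 against CPA (exact p = 0.886 and 0.429).

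**Figure D4:**
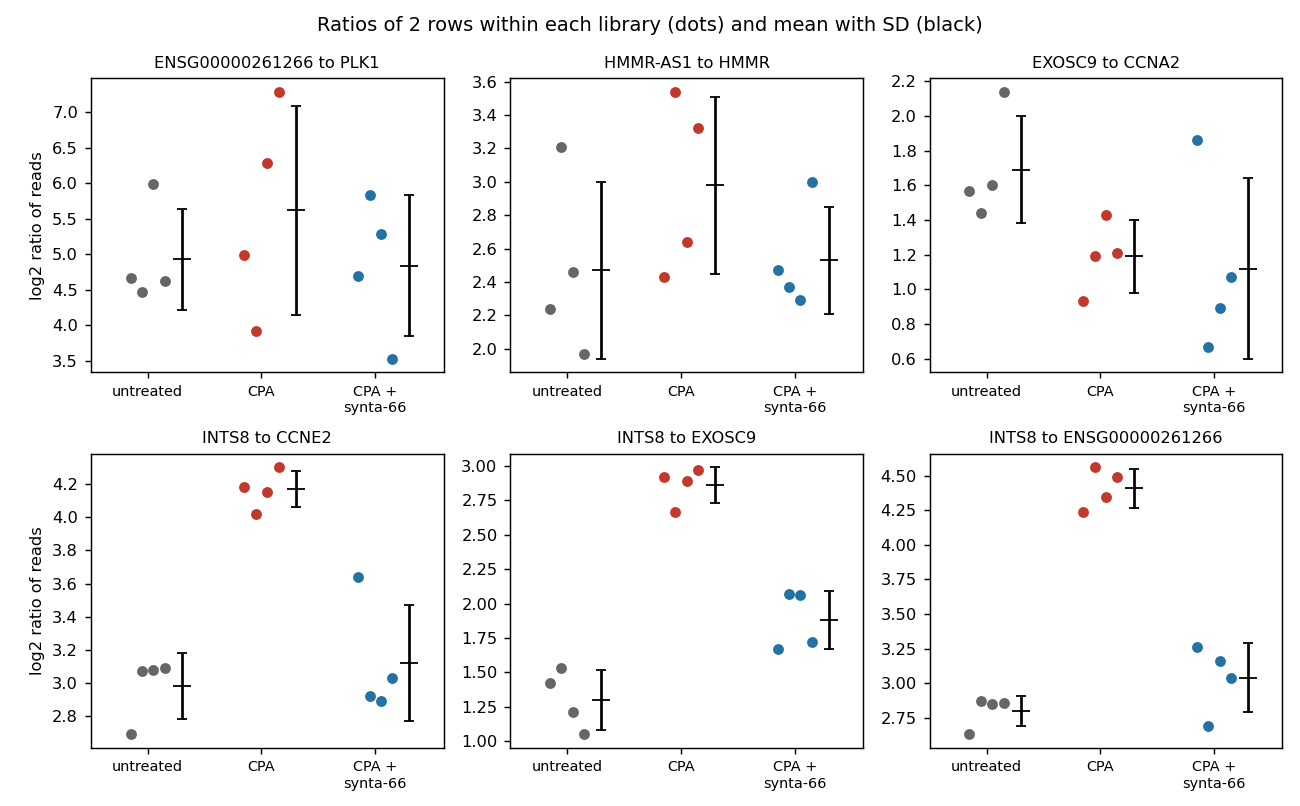
Log2 ratios of reads of 2 rows within each library (dots) and their mean with SD (black) in the 3 groups, for the 6 ratios tested. The 4 CPA libraries stand above all others for INTS8 to CCNE2, to EXOSC9 and to ENSG00000261266, and the ratio of ENSG00000261266 to PLK1 spreads from 3.53 to 7.29.

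CCND1, the D-type cyclin, lay at a lower level in both treated groups. It held 107, 75.4, 65.6 and 172 CPM untreated, 80.3, 63.2, 50.6 and 61.3 CPM with CPA and 48.7, 48.4, 86.5 and 77.0 CPM with synta-66. The groups overlapped, and untreated replicate 4 stood high. The fall with CPA was -0.72 ± 0.19 on the log2 scale (adjusted p = 0.0149), and the difference between CPA with synta-66 and untreated cells was -0.68 ± 0.19 (adjusted p = 0.0279). The treated groups differed by 0.03 with a 95% interval from -0.36 to 0.42. Both calls depended on single libraries. Without untreated replicate 4 the values were -0.38 (adjusted p = 0.226) and -0.35 (adjusted p = 0.31). The first was also lost without CPA replicate 3 (adjusted p = 0.0964) or 4 (0.0537), and the second without untreated replicate 1 (0.0692) and without either of the first 2 replicates of CPA with synta-66 (0.131 and 0.177). DESeq2 called neither, with adjusted p = 0.255 and 0.307.

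CCND1 also has a row on the opposite strand. LTO1 (chr11:69653076-69675416, minus strand) overlaps exons of CCND1 (chr11:69641156-69654474, plus strand) by 497 bases. Its reading was added after the values were seen. LTO1 held 2384, 2739, 2790 and 2491 CPM untreated, 2261, 2269, 2437 and 2366 CPM with CPA, and 1836, 1909, 2041 and 2030 CPM with synta-66. Every library with synta-66 lay below every other library. The log2 fold change was -0.16 ± 0.07 with CPA (adjusted p = 0.244), -0.26 ± 0.07 from CPA to CPA with synta-66 (adjusted p = 0.0122) and -0.41 ± 0.07 between synta-66 and untreated cells (adjusted p = 4.32e-05). None reached the minimum fold.

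The rows most alike to each opposite row over the 12 libraries were taken from 6356 tested rows with a mean of at least 5 CPM, by the root-mean-square difference of centred log2 CPM. For ENSG00000261266 these were NQO2, which encodes a quinone reductase (0.106), CCNK (0.107), a row opposite CCDC85C, and ENSG00000280316 (0.118). For HMMR-AS1 they were KIF23-AS1 (0.102), HSD17B6 (0.11) and XRRA1 (0.118). The first of these rows lies opposite the gene of the mitotic kinesin KIF23 and opposite PAQR5, the second opposite the DNA primase gene PRIM1 and the third opposite RNF169. KIF23-AS1 held 133 ± 3.79 CPM untreated, 86.3 ± 7.75 with CPA and 124 ± 8.32 with synta-66 (SD, n = 4). HSD17B6 held 129 ± 10.5, 84.3 ± 9.33 and 138 ± 13.8 CPM in the same order. XRRA1 held 253 ± 29.4, 167 ± 5.97 and 253 ± 6.72 CPM. NQO2, with no coding gene opposite, held 642 ± 39.7, 425 ± 11.8 and 588 ± 17.3 CPM. For CCNK the values were 199 ± 14.7, 135 ± 9.87 and 178 ± 11.8 CPM. For ENSG00000280316 they were 258 ± 17.8, 165 ± 14.2 and 224 ± 13.7 CPM. These were chosen for their likeness, so their values are a description.

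For EXOSC9 the most alike rows were farther away: DCLRE1C (0.159), which lies opposite the histone methyltransferase gene SUV39H2, ADNP-AS1 (0.179) and the phosphate transporter gene SLC20A1 (0.191). DCLRE1C held 163 ± 16.5 CPM untreated, 120 ± 2.79 with CPA and 125 ± 8.51 with synta-66. For INTS8 the most alike row was ENSG00000234961 (0.125), a long noncoding RNA gene opposite VIM, which held 2741 ± 124, 5323 ± 377 and 2805 ± 69.6 CPM. ENSG00000265263 (0.136) and ENSG00000229047 (0.137), the latter opposite NRIP1, followed. CCND1 had no row as near, with HSPH1 and HSP90AA1 at 0.249 and PTGES3 at 0.273, all 3 of them genes of chaperones or co-chaperones. Over all candidates the median difference was 0.447 for ENSG00000261266 and 0.598 for CCND1.

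The wider pathways were read from lists of cell cycle, exosome and Integrator genes, by their own rows and at opposite rows. The lists leave out the 9 rows, so the calls of HMMR and CCND1 by own row are not in their counts. By own rows with CPA, none of 25 tested regulators of G1 and S phase and none of 30 genes of G2 and M phase was called by edgeR or by DESeq2, and 1 and 7 of them had an unadjusted p under 0.05. The share of all rows at that level was not counted. By the rank of LTO1, which is under it, at least 1637 of the 14911 rows were so with CPA. Counts at this level, here and in the other lists, are thus a description and not an excess over all rows. Of 23 DNA replication genes edgeR called TK1 higher and none lower, while 6 had an unadjusted p under 0.05 and 18 a value below 0. DESeq2 called TK1 higher and MCM3, a subunit of the replicative helicase, lower (-0.82 ± 0.26, adjusted p = 0.0345). The median log2 fold change was 0.08, -0.47 and -0.37 in these lists, beside -0.01 over all rows, and 23 of the 30 G2 and M phase genes had a value below 0. Among the 7 above 0 was PKMYT1, whose own row rose from 456 ± 30.8 to 631 ± 67.0 CPM (0.47 ± 0.08, adjusted p = 0.000112), under the minimum fold. At opposite rows 3.41% of 3991 coding genes were called higher with CPA and 1.3% lower. None of 9 G1 and S phase, 6 DNA replication or 5 G2 and M phase genes read in this way was called by edgeR or by DESeq2, and 1, 2 and 4 had an unadjusted p under 0.05. The medians were -0.16, 0.08 and -0.38, beside 0.03 over all genes read so. TACC3, a spindle protein gene read at TMEM129, held 14.6 ± 2.74 CPM untreated, 8.41 ± 2.48 with CPA and 13.9 ± 4.49 with synta-66 (-0.80 ± 0.28 with CPA, adjusted p = 0.108). KIF20A, a mitotic kinesin gene read at CDC23, held 27.3 ± 2.25, 20.9 ± 3.02 and 29.2 ± 6.42 CPM (-0.38 ± 0.18, adjusted p = 0.317). ANLN, the anillin gene read at MATCAP2, held 301 ± 15.2, 252 ± 15.6 and 245 ± 16.2 CPM (-0.25 ± 0.08, adjusted p = 0.0693). PKMYT1 read at PAQR4 went the other way, with 179 ± 18.6, 210 ± 19.3 and 152 ± 6.31 CPM (0.23 ± 0.09, adjusted p = 0.205). CDC25C read at FAM53C, the last of the 5, averaged at most 3.30 CPM in any group (-0.77 ± 0.64, adjusted p = 0.65). The opposite rows overlap exons of TACC3, KIF20A, ANLN, PKMYT1 and CDC25C by 132, 74, 78, 1228 and 293 bases. The values are those of the opposite rows and not levels of the named genes. These 5 genes were named after their values were seen.

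TK1, the thymidine kinase of the S phase, had few reads and rose from 6.25 ± 2.34 to 13.4 ± 4.02 CPM with CPA (log2 fold change 1.11 ± 0.32, adjusted p = 0.032). Of the other polo-like kinases, PLK3, a stress-responsive member, was read at DYNLT4, which overlaps its exons by 98 bases. The row of DYNLT4 rose from 10.6 ± 1.53 to 22.7 ± 5.34 CPM with CPA (1.11 ± 0.24, adjusted p = 0.00275). With synta-66 it stood at 14 ± 4.02 CPM (-0.68 ± 0.24 against CPA, adjusted p = 0.0836). By own rows none of the 3 tested polo-like kinases was called by edgeR or DESeq2, nor had any an unadjusted p under 0.05 with CPA. The own row of PLK3 held 2.32 ± 0.459 CPM untreated and 1.73 ± 0.624 with CPA (-0.43 ± 0.59, adjusted p = 0.822). With CPA the rows opposite PLK1 and PLK3 moved in opposite directions.

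**Figure D5:**
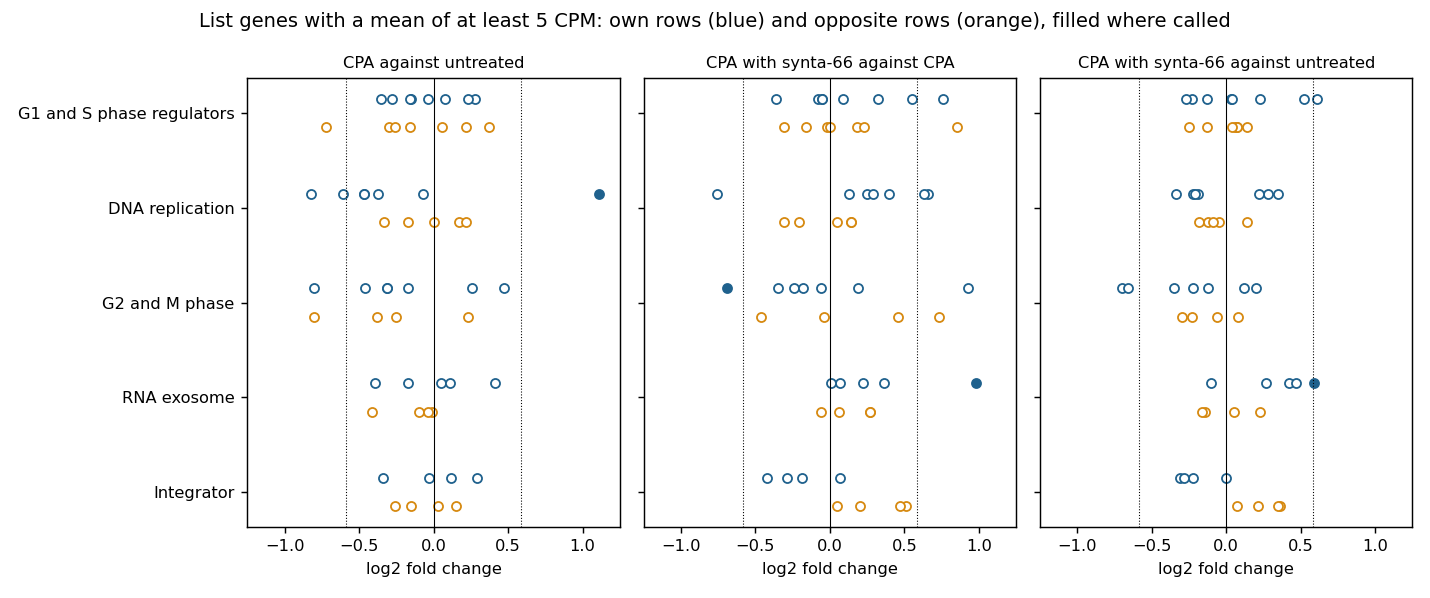
Log2 fold changes in the 3 comparisons for list genes that averaged 5 CPM or more, read by own rows (blue) and at opposite rows (orange); filled points were called and dotted lines mark 1.5-fold. In these 5 lists, which leave out the 9 rows, the polo-like kinases and the p53 targets, the only filled point with CPA is TK1 at 1.11. DIS3 is the filled point of the RNA exosome in the other comparisons, and PKMYT1 that of G2 and M phase.

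With synta-66 against CPA, PKMYT1, the gene of an inhibitory kinase of CDK1, was the single gene of the G2 and M phase list that edgeR called by its own row, beside HMMR, which is not in the list. It went from 631 ± 67.0 to 390 ± 38.8 CPM (-0.69 ± 0.08, adjusted p = 5.92e-08), after 456 ± 30.8 CPM untreated. This row also lies opposite PAQR4 and KREMEN2. DESeq2 called PKMYT1 too, and CENPF, a kinetochore protein gene, higher (2.34 ± 0.80, adjusted p = 0.043). Of 8 tested p53 targets GADD45A rose, from 3.66 ± 2.04 to 12.9 ± 5.36 CPM (1.79 ± 0.44, adjusted p = 0.00557), and against untreated cells by 1.59 ± 0.44 (adjusted p = 0.0251). With CPA none of the 8 p53 targets was called by own row, and none had an unadjusted p under 0.05. No gene of the G1 and S phase list, which does not hold CCND1, or of the DNA replication list was called by edgeR or DESeq2 by own row in the comparisons with synta-66. Against CPA 0 of the 25 and 4 of the 23 had an unadjusted p under 0.05, and against untreated cells 1 and 0. By the rank of ERN2, which is under that level, at least 2740 of the 14911 rows were so against CPA. The 4 of 23 are therefore not read as an excess. At opposite rows none of the genes of these lists (6 p53 targets among them) was called by either tool, with 7 at an unadjusted p under 0.05 against CPA and 2 against untreated cells. Over all genes read so, 2.68% were called higher and 4.36% called lower against CPA, and 2.86% and 1.28% against untreated cells.

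Of the partners of EXOSC9 and INTS8 in their complexes, only DIS3 was called by its own row. Of 9 tested genes of the other exosome subunits and DIS3, none was called with CPA by edgeR or DESeq2 and 2 had an unadjusted p under 0.05 (median log2 fold change 0.05, beside the -0.61 of EXOSC9). Values lay above 0 for 5 of the 9 and below 0 for 4. DIS3 was among the latter, with 214 ± 10.3 CPM untreated and 164 ± 12.3 with CPA (-0.39 ± 0.09, adjusted p = 0.00232), under the minimum fold. DIS3, a catalytic subunit, rose with synta-66 from 164 ± 12.3 to 324 ± 15 CPM (0.98 ± 0.09, adjusted p = 1.14e-11) and against untreated cells by 0.59 ± 0.08 (adjusted p = 2.7e-06). Its row lies opposite BORA, the gene of an activator of PLK1. Of 10 tested genes of other Integrator subunits none was called in any comparison by either tool, with 1, 2 and 0 at an unadjusted p under 0.05, and the median with CPA was -0.04, beside the 0.96 of INTS8. INTS11 rose with CPA from 297 ± 10.8 to 364 ± 12.3 CPM (0.29 ± 0.08, adjusted p = 0.0153). With synta-66 it held 297 ± 17.2 CPM (-0.29 ± 0.08 against CPA, adjusted p = 0.0123). Both changes lay under the minimum fold. With CPA 4 of the 10 had a value above 0 and 6 below. At opposite rows 4 exosome and 4 Integrator genes were read and none was called by either tool. For the exosome genes none had an unadjusted p under 0.05, and for the Integrator genes 0, 1 and 2 had.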

How the data were processed

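Each of the 12 libraries has 1 file of raw counts per gene, which the authors deposited without normalization. Per the labels' protocols, reads were aligned to GRCh38 with STAR and the Ensembl 84 annotation, and HTSeq counted them treating the library as stranded. HTSeq 0.6.1p1 and Trimmomatic 0.36 are the versions in the submitters' processing notes. The sources used here do not name the library kit. Of each file, the 5 closing rows of unassigned reads were left out. Of 60675 gene IDs, 56558 were matched in GENCODE 44.

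Counts were fitted with edgeR 4.0.16 (R 4.3.3), TMM scaling and 1 quasi-likelihood fit of all 3 groups. Following the series' design text, rows with at least 5 reads in 2 of the 4 libraries of a group were kept, and calls needed an adjusted p under 0.05 and 1.5-fold. CPM use TMM-scaled sizes. Ratios within a library add 0.5 reads to each row and were compared by exact two-sided permutation. A coding gene was read at an opposite row that overlaps exons of that gene alone by at least 30 bases, taking the one with the most reads. The edgeR calls were tested on simulated counts drawn with the means, library sizes and spread of these data. Such a test does not bear on the reading of genes at opposite rows or on the strand of the reads.

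The members, lists and rules were chosen with earlier results of these data known. Named were all 9 rows, for each list and comparison up to 4 called genes that averaged 1 CPM or more, and the 3 most alike rows. The alternatives were RLE and upper-quartile scaling, DESeq2 1.42.0, filterByExpr, no filter but 1 read, 2 groups only, a replicate block, each library left out, the 3 libraries richest in non-unique alignments left out, no minimum fold, and glmTreat, a test against the minimum fold. Leaving out the 2 mitochondrial ribosomal RNAs, the 4 added ratios and the reading of CCND1 at LTO1 were chosen after seeing the data.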

Additional observations from a re-analysis of the deposited data

Results flagged for a closer look

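The row ENSG00000261266, opposite PLK1, had 1 untreated library far from the others. Untreated replicate 3 held 89.1 CPM, while the other 3 lay between 75.3 and 77.6 CPM. The gap was a share of 0.832 of the range of the group, just above Dixon's limit for 4 values. This was the only one of the 27 groups of 4 values examined that passed, and chance alone passes about 1 in 20. Replicate 3 is also the untreated library with the most mitochondrial ribosomal RNA (39.63% of gene reads), and the part of this in the value was not tested.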

How the results depend on the processing

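For the 9 rows, 27 changes were recomputed under 23 alternatives each, and 569 of 621 values kept their direction and their side of the call; 10 changes did so in all of them. Over all rows, calls for CPA against untreated went from 425 to 655 with no minimum fold and to 100 with glmTreat, and with glmTreat, which tests whether a change exceeds 1.5-fold, there were 157 where synta-66 was set against CPA alone (710 before) and 102 against untreated cells (433 before). Leaving out 1 library gave 357 to 441, 568 to 784 and 335 to 427 calls. Over the other alternatives the highest counts were 655, 1060 and 602. In the first comparison CPA is set against untreated cells, in the second CPA with synta-66 against CPA and in the third the same group against untreated cells. Deviations of same-numbered libraries correlated between -0.068 and 0.134, above 0.1 for only 1 of 12 pairs, so the numbers were not taken as pairs, although 2 of the 12 correlated best with their own number. A fit with the replicate block gave 441, 723 and 418 calls, of which 407, 673 and 399 were shared. The block changed no call of the 9 rows.

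In the first comparison, glmTreat ended the calls of ENSG00000261266 (-0.64), HMMR-AS1 (-0.67), EXOSC9 (-0.61), HMMR (-1.18) and CCND1 (-0.72), and DESeq2 that of CCND1 (-0.72). In the second it ended those of HMMR-AS1 (0.67) and HMMR (1.12), and in the third that of CCND1 (-0.68), which DESeq2 (-0.68) and the fit of 2 groups (-0.67, adjusted p = 0.0649) ended too. With no minimum fold, ENSG00000261266 in the second comparison (0.55), EXOSC9 in the third (-0.45) and LTO1 in both (-0.26 and -0.41) were called. Without the 3 libraries that held the most non-unique alignments, ENSG00000261266 (-0.58) and EXOSC9 (-0.50) lost their call with CPA, CCNA2 turned to 0.039 and EXOSC9 in the second comparison to -0.11, and EXOSC9 was called in the third (-0.61), where PLK1 turned to -1.02 and HMMR to 0.10. The ratios that turned there, against untreated cells, were ENSG00000261266 to PLK1 (0.98), HMMR-AS1 to HMMR (-0.14) and INTS8 to CCNE2 (-0.044). The cause was not tested.

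With each library left out in turn, the ranges with CPA were -0.69 to -0.57 for ENSG00000261266, -0.72 to -0.51 for EXOSC9, -1.39 to -0.999 for HMMR, -0.19 to 0.034 for CCNA2 and -0.88 to -0.38 for CCND1. In the second comparison they were 0.48 to 0.59 for ENSG00000261266, 0.95 to 1.34 for HMMR and -0.14 to 0.17 for CCND1. In the third they were -0.063 to 0.042 for HMMR-AS1, -0.55 to 0.33 for PLK1, -0.26 to 0.12 for HMMR, -0.089 to 0.14 for CCNE2 and -0.86 to -0.35 for CCND1. The log2 ratios that turned ranged from -0.31 to 0.088 for EXOSC9 to CCNA2 in the second comparison, and in the third from -0.43 to 0.34 for ENSG00000261266 to PLK1, -0.10 to 0.31 for HMMR-AS1 to HMMR and -0.034 to 0.22 for INTS8 to CCNE2. The precision is lowest for the own rows of PLK1, with 100 reads over all 12 libraries, and HMMR, with 472.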
